A study of Mus musculus with 12 samples.

Results

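The genes described here are 10 genes that guide lymphocytes through the spleen and lymph nodes or are named beside those that do. They are the chemokine receptors Ccr6, Ccr7, Cxcr3, Cxcr4 and Cxcr5, the sphingosine-1-phosphate receptors S1pr1, S1pr2 and S1pr4, the oxysterol receptor Gpr183, also called EBI2, and Ebi3. They were taken by symbol from the 23643 genes on the array that matched a RefSeq symbol or synonym, and each was followed through 6 conditions by its brightest probe. Of the 10 genes, 9 encode receptors. Ebi3 encodes a secreted cytokine subunit and not a receptor, so it is described apart from the others.

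RNA was measured in resting B (RB) cells, which were CD43-negative spleen cells of BALB/c mice, given in the labels as female and 6 weeks old. The methods allow mice of either sex. The cells were cultured unstimulated or with Pam2CSK4 (a lipopeptide ligand of TLR-2), anti-CD86, anti-CD86 + Pam2CSK4 (TLR2.CD86), anti-CD40, or anti-CD40 + Pam2CSK4. The labels give a time of 4 h for every array, those of unstimulated cells included. Anti-CD86 and anti-CD40 are antibodies that bind costimulatory molecules on the B cell surface. Each of the 6 conditions had 2 arrays, which the study describes as biological replicates. An isotype antibody control was not analysed here, so the effect of any antibody was not set apart from that of its target.

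Naive B cells enter a lymphoid organ from the blood, settle in a follicle and later leave again, and a different receptor serves each step. CXCR5 reads CXCL13, the chemokine of the follicle, and CCR7 reads CCL19 and CCL21, the chemokines of the T cell zone, so that the balance of both places an activated B cell at the border between them. S1PR1 reads sphingosine-1-phosphate, a lipid that is abundant in blood and lymph, and is needed for exit from the tissue. GPR183 follows an oxysterol gradient to the outer follicle, CXCR4 reads CXCL12, CCR6 reads CCL20, and S1PR2 holds B cells within germinal centres.

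The measured letters of the array can be shown for genes whose signal fell after stimulation. The probe of Ccr6, the probe of S1pr4 and the dimmer of both Cxcr4 probes are each 60 bases long and are given as the array design lists them, 5′ to 3′.
Ccr6: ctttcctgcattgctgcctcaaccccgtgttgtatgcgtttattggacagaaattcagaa
S1pr4: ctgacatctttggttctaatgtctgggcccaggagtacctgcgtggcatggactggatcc
Cxcr4: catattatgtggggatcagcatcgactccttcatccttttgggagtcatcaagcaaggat

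CD40 and TLR-2 both signal to NF-kB, so the promoters that the RefSeq table (GRCm38.p6) held for 7 of the 10 genes were read for a kappaB-like motif (GGG, any 2 bases, TT, any base, CC) on both strands of the 250 bases before the start of the gene. Of 32851 promoters of that length, 4.11% held the motif. No promoter of Ccr7, Cxcr5 or S1pr1 was in the RefSeq table, so these genes were not searched. Of the 8 promoters of the 7 genes, 2 held the motif, that of Ebi3 and 1 of the 2 of Ccr6. Both promoters are printed because they held the motif, which the capitals mark. The signals of their genes moved in opposite directions after anti-CD40. The Ebi3 promoter is chr17:55952373-55952622 on the plus strand, with the match GGGGCTTCCC lying 44 to 35 bases before the start. The Ccr6 promoter is that of 1 of 2 listed starts, chr17:8242276-8242525 on the plus strand, and its match GGGAATTCCC, at 80 to 71 bases before the start, reads the same on both strands. A match describes the letters only, and binding was not measured.
Ebi3: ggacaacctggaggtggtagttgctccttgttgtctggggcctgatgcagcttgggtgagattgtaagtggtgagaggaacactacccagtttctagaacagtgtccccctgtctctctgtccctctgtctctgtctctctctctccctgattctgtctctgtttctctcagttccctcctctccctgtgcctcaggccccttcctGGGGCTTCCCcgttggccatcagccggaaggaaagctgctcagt
Ccr6: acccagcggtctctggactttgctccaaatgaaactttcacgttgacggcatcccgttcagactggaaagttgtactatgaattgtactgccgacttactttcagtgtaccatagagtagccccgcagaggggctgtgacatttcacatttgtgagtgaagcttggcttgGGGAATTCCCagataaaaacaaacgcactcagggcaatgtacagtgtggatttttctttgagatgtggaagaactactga

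A signal is given as the log2 processed intensity of a spot after subtraction of its array's 75th percentile on that scale, so it can be compared between arrays for 1 gene but not between genes. A change is a difference of 2 means on that scale, tested with limma over 31599 probes, and was called at a Benjamini-Hochberg adjusted p under 0.05. The 12 arrays lay on 2 slides. Slide 1 held both arrays of unstimulated cells, both of anti-CD40 + Pam2CSK4 and the first array of each other condition, and slide 2 held the second array of those 4 conditions. The slide 2 array of anti-CD40 stood apart, with 60.6% of its spots well above background and a median intensity of 51.3, against medians of 17.3 to 33.5 on the other 11 arrays. Values from a fit that held the slide as a block (the slide-adjusted fit) and from slide 1 alone are therefore given beside the results. All 10 B cell marker genes were well above background on every array. Of 12 T cell markers, 11 to 12 were also well above background, as were 7 to 8 of 8 NK cell markers and 10 to 11 of 12 myeloid and dendritic cell markers, and their values stand beside the results that they moved with.

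Stimulation through CD40 moved most of these genes, and stimulation through CD86 or TLR-2 alone moved none past the threshold in the fit without a slide term. With anti-CD40, 6 of the 10 genes were called against unstimulated cells, namely Ccr7, Cxcr5 and Ebi3 higher and Ccr6, S1pr1 and S1pr4 lower, where 20.4% of all 14382 genes tested were called (4.68% higher and 15.7% lower). With anti-CD40 + Pam2CSK4, 8 were called, with Gpr183 joining the genes that rose and Cxcr4 those that fell, beside 21.4% of all genes (7.63% higher and 13.7% lower). With TLR2.CD86, Cxcr4 and S1pr1 were called lower and no gene higher, beside 12.9% of all genes called (11.1% lower). Ccr7, Cxcr5 and Ebi3 gave 0.64, 0.45 and 0.50 there and missed the threshold (limma adjusted p = 0.0595, 0.105 and 0.0791). The slide-adjusted fit called these 3 genes higher and 3 lower (Cxcr3, Cxcr4 and S1pr1), beside 40.4% of all genes called. Limma called 0 of the 10 genes with Pam2CSK4 alone, beside 0.153% of all genes, and 0 with anti-CD86 alone, beside 2.13%. At an unadjusted p under 0.05 these counts were 5, beside 17.2% of all genes, and 6, beside 26.3%.

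**Figure D1:**
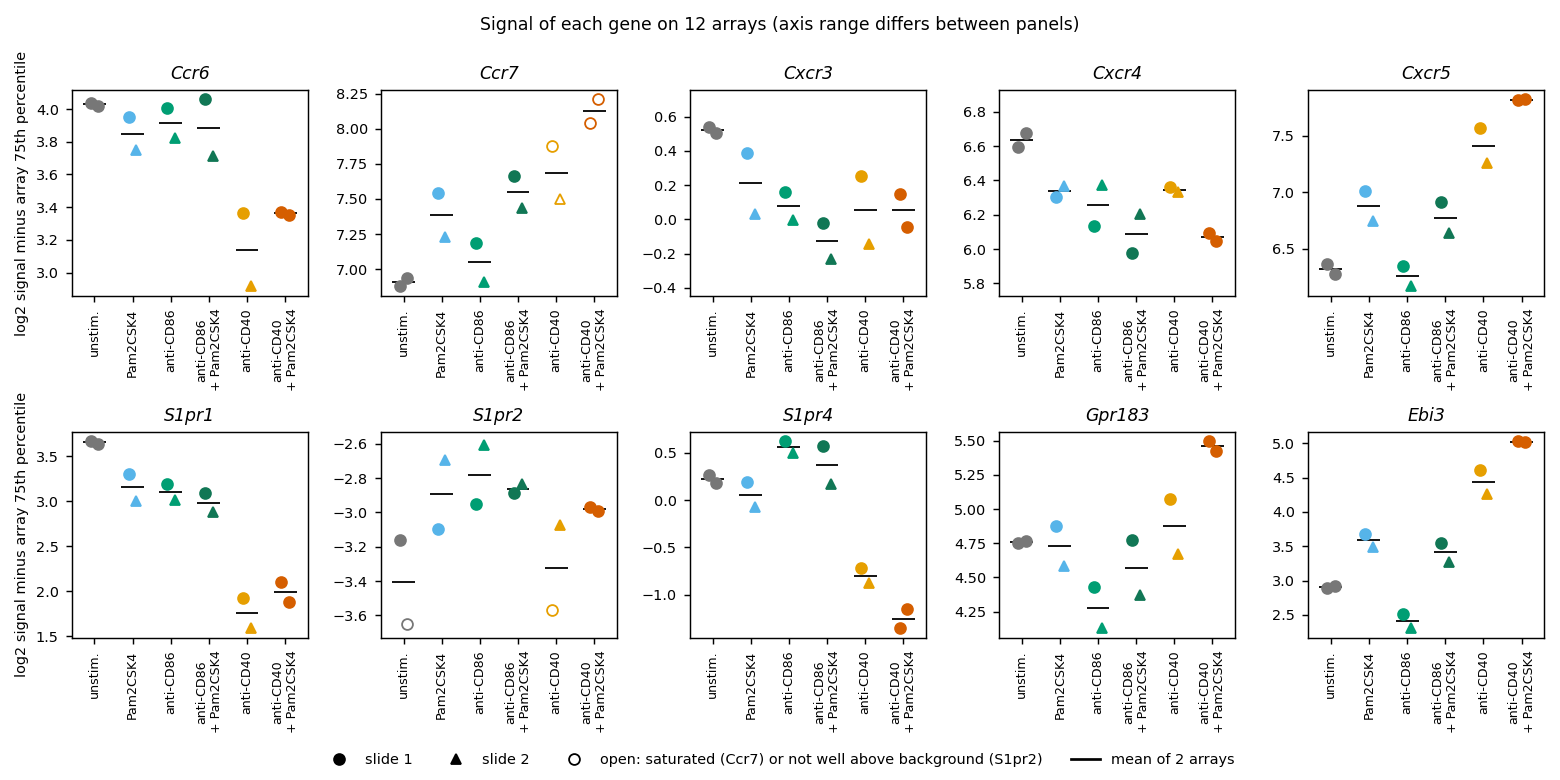
The log2 signal of each gene, scaled to the array's 75th percentile (y axis, with its own range in each panel) is plotted for the 12 arrays in 6 conditions; circles are slide 1, triangles slide 2 and bars the mean of 2 arrays. S1pr1 and S1pr4 lay lowest on all 4 arrays with anti-CD40, and Cxcr5 and Ebi3 lay highest there; open symbols mark saturated Ccr7 spots and S1pr2 spots not well above background.

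In the slide-adjusted fit the number of calls rose for these genes and for all genes. The calls were then 5 with Pam2CSK4 (12.3% of all genes), 6 with anti-CD86 (31.6%), 6 with TLR2.CD86 (40.4%), 9 with anti-CD40 (44%) and 9 with anti-CD40 + Pam2CSK4 (54.1%). S1pr2 was called in no comparison in either fit. On slide 1 alone, the counts were 0, 0, 4, 6 and 9 in the same order, beside 0%, 0.00695%, 22.9%, 27.1% and 46.5% of all genes. Stimulated and unstimulated arrays did not overlap for 8 of the 10 genes with Pam2CSK4, 8 with anti-CD86, 7 with TLR2.CD86, 8 with anti-CD40 and 10 with anti-CD40 + Pam2CSK4, beside 61.1%, 67.5%, 66.9%, 66% and 81.1% of all genes.

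The median gene itself changed by -0.16 with Pam2CSK4, -0.16 with anti-CD86, -0.20 with TLR2.CD86, -0.18 with anti-CD40 and -0.10 with anti-CD40 + Pam2CSK4 on the log2 scale. Scaling to the median of each array in place of the 75th percentile moved the anti-CD40 value of the median gene to -0.75. Relative to the median gene, a difference that neither scaling can alter, the changes with anti-CD40 were -1.72 for S1pr1, -0.84 for S1pr4, -0.71 for Ccr6, 0.96 for Ccr7, 1.27 for Cxcr5 and 1.71 for Ebi3. With the median scaling 1 gene stayed called with anti-CD40 (S1pr1; 1.07% of all genes) and 2 with anti-CD40 + Pam2CSK4 (S1pr1 and Ebi3; 1.75% of all genes). Of all genes called with TLR2.CD86, 13.6% were higher, and with the median scaling 38.9% of the 36 still called. For Pam2CSK4 these shares were 77.3% and 66.7%.

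S1pr1, the receptor needed for exit from lymphoid tissue, showed the largest fall of the 10 genes with either CD40 stimulation. Its signal on the log2 scale was 3.67 and 3.64 on the unstimulated arrays, 3.30 and 3.0 with Pam2CSK4, 3.19 and 3.02 with anti-CD86, 3.09 and 2.88 with TLR2.CD86, 1.92 and 1.59 with anti-CD40, and 2.10 and 1.88 with anti-CD40 + Pam2CSK4. All 10 stimulated arrays lay below both unstimulated arrays, and the 4 arrays with anti-CD40 lay below all others. The change with anti-CD40 was -1.90 ± 0.17 (SE, n = 2 against 2; limma adjusted p = 0.00118), a 3.74-fold fall. With anti-CD40 + Pam2CSK4 it was -1.66 ± 0.17 (adjusted p = 0.000803), a 3.16-fold fall. Both stayed called in each of the 22 other settings tried, with ranges of -2.47 to -1.73 and -1.77 to -1.55. In bulk RNA, fewer cells of a type and less RNA per cell cannot be told apart.

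S1pr1 also fell with TLR2.CD86, by a smaller amount. The change was -0.67 ± 0.17 (limma adjusted p = 0.0442), or -0.54 in the slide-adjusted fit (adjusted p = 0.00514). On slide 1 alone it was -0.57 and missed the threshold (adjusted p = 0.0572), and it missed it also when any of 10 of the 12 arrays was left out. Pam2CSK4 and anti-CD86 alone gave -0.50 and -0.55, which passed the threshold after slide adjustment (adjusted p = 0.0463 and 0.0154). The T cell markers, a source of S1pr1 in spleen, had a summed signal of 42.0 to 42.8 times the 75th percentile in unstimulated cells and 29.2 to 36.7 with anti-CD40, where limma called 0 of the 12 and the slide-adjusted fit 3. With TLR2.CD86 it was 27.5 to 34.9, and 1 of 12 (Thy1) was called lower, or 7 after slide adjustment. With anti-CD40 + Pam2CSK4 it was 37.9 to 38.0, and 0 of 12 were called, or 5 after slide adjustment. Of all genes, 20.4%, 12.9% and 21.4% were called in the same order, or 44%, 40.4% and 54.1% after slide adjustment. The part of the T cell markers in the fall of S1pr1 was not tested.

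S1pr4, a further S1P receptor of lymphocytes, separated the CD40 arrays from the rest. Its log2 signal was 0.26 and 0.18 in unstimulated cells, 0.19 and -0.08 with Pam2CSK4, 0.62 and 0.50 with anti-CD86, 0.57 and 0.17 with TLR2.CD86, -0.72 and -0.88 with anti-CD40, and -1.35 and -1.15 with anti-CD40 + Pam2CSK4. Both anti-CD86 arrays lay above the unstimulated ones, the TLR2.CD86 arrays lay on either side of them, and the 4 arrays with anti-CD40 lay below all others. The change was -1.02 ± 0.17 with anti-CD40 (limma adjusted p = 0.00889) and -1.47 ± 0.17 with anti-CD40 + Pam2CSK4 (adjusted p = 0.00124), a 2.03-fold and a 2.78-fold fall. The first of these also was lost without either unstimulated array. Anti-CD86 alone gave 0.33 ± 0.17, which passed the threshold after slide adjustment (0.45, adjusted p = 0.0196).

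S1pr2, the receptor of germinal centre confinement, was dim. Its brighter probe was well above background on 1 of 2 arrays in unstimulated cells and with anti-CD40 and on both arrays elsewhere. The log2 signal was -3.16 and -3.65 in unstimulated cells, -3.10 and -2.69 with Pam2CSK4, -2.95 and -2.61 with anti-CD86, -2.89 and -2.83 with TLR2.CD86, -3.57 and -3.08 with anti-CD40, and -2.97 and -2.99 with anti-CD40 + Pam2CSK4. The anti-CD40 arrays overlapped the unstimulated ones, and the arrays of the other 4 conditions lay above both unstimulated arrays. Limma called no change. The largest, 0.62 ± 0.24 with anti-CD86 (adjusted p = 0.169), had a 95% interval from 0.08 to 1.17.

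Ccr7, the receptor for the chemokines of the T cell zone, rose with CD40 stimulation up to the limit of the scanner. On the log2 scale it read 6.88 and 6.94 in unstimulated cells, 7.54 and 7.23 with Pam2CSK4, 7.19 and 6.91 with anti-CD86, 7.67 and 7.44 with TLR2.CD86, 7.88 and 7.50 with anti-CD40, and 8.04 and 8.21 with anti-CD40 + Pam2CSK4. The spots of all 4 arrays with anti-CD40 were saturated, so their values are lower bounds and the difference between both CD40 conditions was not measured. From these readings the rise was estimated at 1.71-fold with anti-CD40 (limma adjusted p = 0.0271) and 2.33-fold with anti-CD40 + Pam2CSK4 (adjusted p = 0.00375). Each is a mean over 2 arrays against the unstimulated mean, and saturation can lower but not raise it. The 95% intervals of the log2 changes began at 0.36 and 0.80. With the median scaling the log2 changes were 0.21 (limma adjusted p = 0.779) and 1.11 (adjusted p = 0.413). The rise with anti-CD40 also missed the threshold without either unstimulated array or without the first anti-CD40 array.

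Without CD40, no Ccr7 spot was flagged as saturated. Those of TLR2.CD86 stood near the limit, at intensities of 62751 and 61491, where an anti-CD40 spot flagged as saturated read 64617. TLR2.CD86 gave 0.64 ± 0.18 (limma adjusted p = 0.0595) and Pam2CSK4 0.48 ± 0.18 (adjusted p = 0.279). After slide adjustment both were called, at 0.79 (adjusted p = 0.00118) and 0.63 (adjusted p = 0.00997). On slide 1 alone TLR2.CD86 gave 0.76 (adjusted p = 0.0358). Anti-CD86 alone gave 0.14 (adjusted p = 0.678; slide-adjusted 0.29, adjusted p = 0.0330), with 1 of its 2 arrays lying between the unstimulated arrays.

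Cxcr5, the follicle homing receptor that defines mature B cells together with other markers, rose with each stimulation that held anti-CD40. Its log2 signal was 6.37 and 6.28 in unstimulated cells, 7.01 and 6.74 with Pam2CSK4, 6.35 and 6.17 with anti-CD86, 6.91 and 6.64 with TLR2.CD86, 7.56 and 7.25 with anti-CD40, and 7.82 and 7.82 with anti-CD40 + Pam2CSK4. The arrays fell into 3 levels without overlap, with unstimulated and anti-CD86 cells lowest, both conditions of Pam2CSK4 without anti-CD40 between, and the anti-CD40 conditions highest. The change was 1.09 ± 0.16 with anti-CD40 (limma adjusted p = 0.00643) and 1.49 ± 0.16 with anti-CD40 + Pam2CSK4 (adjusted p = 0.000974), a 2.12-fold and a 2.82-fold rise. The first was lost without either unstimulated array. The values with Pam2CSK4 (0.56 ± 0.16) and TLR2.CD86 (0.45 ± 0.16) passed the threshold after slide adjustment, at adjusted p = 0.00471 and 0.0014, and for TLR2.CD86 also on slide 1 alone (0.59, adjusted p = 0.0346). No Cxcr5 spot was flagged as saturated. Those of both CD40 conditions had intensities of 52845 to 60645, where a flagged Ccr7 spot read 64617.

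Ccr6, the CCL20 receptor, fell with both CD40 stimulations. The arrays read 4.04 and 4.02 in unstimulated cells, 3.95 and 3.75 with Pam2CSK4, 4.01 and 3.82 with anti-CD86, 4.06 and 3.71 with TLR2.CD86, 3.36 and 2.92 with anti-CD40, and 3.37 and 3.35 with anti-CD40 + Pam2CSK4. The 4 anti-CD40 arrays lay below the other 8. The arrays of Pam2CSK4 and anti-CD86 lay below both unstimulated ones, and those of TLR2.CD86 lay on either side of them. The change was -0.89 ± 0.18 with anti-CD40 (limma adjusted p = 0.0176) and -0.67 ± 0.18 with anti-CD40 + Pam2CSK4 (adjusted p = 0.0381). Without the slide 2 array of anti-CD40 the first of these was -0.67 and missed the threshold (adjusted p = 0.0782), while after slide adjustment it was -0.74 (adjusted p = 0.000896). On slide 1 alone, both stayed called at -0.67 (adjusted p = 0.0238 and 0.00743). The change with anti-CD40 was also lost without either unstimulated array, and that with anti-CD40 + Pam2CSK4 was lost in 10 of 22 settings, 8 of them with a single array left out.

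Cxcr4, the CXCL12 receptor, fell with both combinations. The brighter of its 2 probes read 6.59 and 6.68 in unstimulated cells, 6.30 and 6.37 with Pam2CSK4, 6.13 and 6.37 with anti-CD86, 5.98 and 6.20 with TLR2.CD86, 6.36 and 6.33 with anti-CD40, and 6.09 and 6.05 with anti-CD40 + Pam2CSK4. All 10 stimulated arrays lay below both unstimulated arrays. The change was -0.55 ± 0.13 with TLR2.CD86 (limma adjusted p = 0.0349) and -0.57 ± 0.13 with anti-CD40 + Pam2CSK4 (adjusted p = 0.0182), and -0.30, -0.38 and -0.29 with Pam2CSK4, anti-CD86 and anti-CD40, none called. In the slide-adjusted fit all 5 were called. The fall with anti-CD40 + Pam2CSK4 was lost without either unstimulated array or either of its own.

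The dimmer Cxcr4 probe gave lower values as well, from -0.33 to -0.46 in the 5 comparisons, but none of them was called. After slide adjustment it was called with anti-CD86, anti-CD40 and anti-CD40 + Pam2CSK4 (-0.46, limma adjusted p = 0.00107) and not with TLR2.CD86 (-0.15, adjusted p = 0.115). The fall with TLR2.CD86 thus rests on 1 probe, and it missed the threshold without any of 8 of the 12 arrays.

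Cxcr3, the receptor for the interferon-induced chemokines CXCL9 and CXCL10, read 0.54 and 0.50 in unstimulated cells, 0.39 and 0.03 with Pam2CSK4, 0.16 and 0.00 with anti-CD86, -0.02 and -0.23 with TLR2.CD86, 0.25 and -0.14 with anti-CD40, and 0.15 and -0.04 with anti-CD40 + Pam2CSK4. All 10 stimulated arrays lay below the unstimulated ones. Both TLR2.CD86 arrays also lay below those of Pam2CSK4 and anti-CD86, and they overlapped those of both CD40 conditions. The change with TLR2.CD86 was -0.65 ± 0.18 (limma adjusted p = 0.0562), and after slide adjustment it was -0.51 (adjusted p = 0.00756). With anti-CD40 and anti-CD40 + Pam2CSK4 it was -0.47 in each (adjusted p = 0.111 in each), and after slide adjustment -0.33 (adjusted p = 0.0330) and -0.47 (adjusted p = 0.00536). T and NK cells also express Cxcr3. Of 8 NK markers, 4 were called lower with TLR2.CD86 and with anti-CD40 (Klrb1c, Gzma, Gzmb and Nkg7). With anti-CD40 + Pam2CSK4, 2 were called lower (Klrb1c and Gzmb). Of all genes, 11.1%, 15.7% and 13.7% were called lower in the same order. After slide adjustment 5, 4 and 5 of the 8 were called, beside 40.4%, 44% and 54.1% of all genes. Summed signals were 22.5 to 22.8 in unstimulated cells, 13.4 to 15.9 with TLR2.CD86 and 13.9 to 16.7 with anti-CD40. With anti-CD40 + Pam2CSK4 they were 17.3 to 18.1. The part of these markers in the Cxcr3 values was not tested.

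Gpr183, the oxysterol receptor of the outer follicle, rose only where anti-CD40 and Pam2CSK4 were combined, among the 5 stimulations tested without a slide term. Its log2 signal was 4.75 and 4.76 in unstimulated cells, 4.88 and 4.59 with Pam2CSK4, 4.43 and 4.13 with anti-CD86, 4.77 and 4.37 with TLR2.CD86, 5.08 and 4.67 with anti-CD40, and 5.49 and 5.43 with anti-CD40 + Pam2CSK4. Both arrays of the combination lay above the other 10, and both of anti-CD86 lay below the unstimulated ones. The change with anti-CD40 + Pam2CSK4 was 0.70 ± 0.20 (limma adjusted p = 0.0438; slide-adjusted 0.000182), a 1.63-fold rise, and it missed the threshold in 10 of 22 other settings. In the slide-adjusted fit, anti-CD40 alone also raised Gpr183 (0.29, adjusted p = 0.00978) and anti-CD86 lowered it (-0.30, adjusted p = 0.0128).

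Ebi3, which pairs with IL-27 p28 or IL-12 p35 to form secreted cytokines, showed the largest rise of the 9 genes measured below saturation. Its log2 signal was 2.89 and 2.92 in unstimulated cells, 3.68 and 3.49 with Pam2CSK4, 2.51 and 2.30 with anti-CD86, 3.55 and 3.27 with TLR2.CD86, 4.61 and 4.26 with anti-CD40, and 5.03 and 5.02 with anti-CD40 + Pam2CSK4. The anti-CD86 arrays lay below the unstimulated ones, those with Pam2CSK4 above, and the anti-CD40 arrays above all others. The change was 1.53 ± 0.16 with anti-CD40 (limma adjusted p = 0.00188), a 2.89-fold rise, and 2.12 ± 0.16 with anti-CD40 + Pam2CSK4 (adjusted p = 0.000211), a 4.35-fold rise. The latter stayed called in each of 22 other settings, between 2.01 and 2.14.

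The other 3 changes of Ebi3 missed the threshold and passed it in the slide-adjusted fit and in 1 to 3 other settings each. Pam2CSK4 gave 0.68 ± 0.16 (limma adjusted p = 0.142; slide-adjusted 0.81, adjusted p = 0.00299), TLR2.CD86 gave 0.50 ± 0.16 (adjusted p = 0.0791; slide-adjusted 0.63, adjusted p = 0.00116) and anti-CD86 gave -0.50 ± 0.16 (adjusted p = 0.122; slide-adjusted -0.37, adjusted p = 0.00719). Anti-CD86 and Pam2CSK4 thus lay on opposite sides of the unstimulated arrays. TLR2.CD86 exceeded anti-CD86 alone by 1.00 ± 0.16 (limma adjusted p = 0.0838; slide-adjusted 0.000897).

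**Figure D2:**
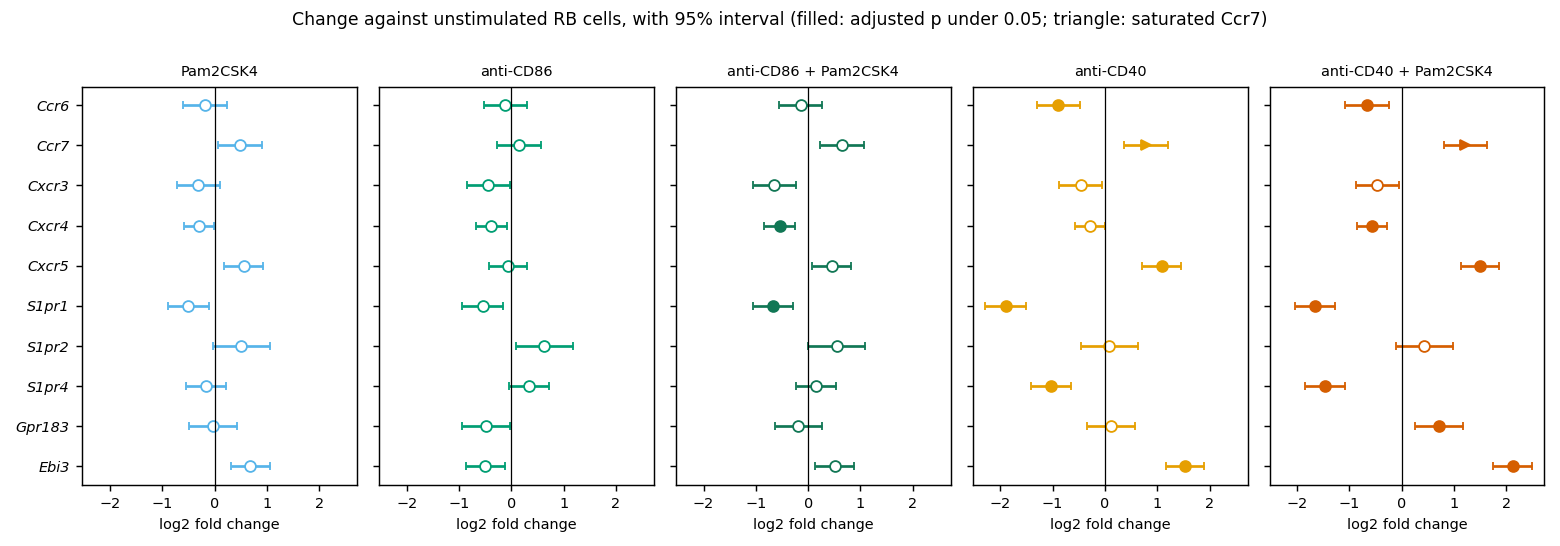
The log2 fold change of each gene against unstimulated RB cells (x axis) is plotted for 5 stimulations with its 95% interval; filled symbols passed an adjusted p of 0.05 and triangles mark Ccr7 where it was saturated. The panels for anti-CD40 hold 6 and 8 filled symbols, TLR2.CD86 holds 2, and the panels of Pam2CSK4 and anti-CD86 hold none.

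The next comparisons ask what a second signal added. Limma called 0 of the 10 genes between TLR2.CD86 and Pam2CSK4 (0 at an unadjusted p under 0.05, beside 9.48% of all genes; 0.0278% of all genes called) and 0 between TLR2.CD86 and anti-CD86 (3 unadjusted, Ccr7, Cxcr5 and Ebi3, beside 8.29%; 0.209% of all genes called). After slide adjustment the first stayed at 0, where 11.3% of all genes were called. The second rose to 4 higher genes, Ccr7 (0.50), Cxcr5 (0.52), Gpr183 (0.29) and Ebi3 (1.00), where 7.41% of all genes were called. On slide 2, single arrays of TLR2.CD86 and anti-CD86 differed in the same direction, by 0.53 for Ccr7, 0.47 for Cxcr5, 0.24 for Gpr183 and 0.97 for Ebi3.

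Adding anti-CD40 to Pam2CSK4 changed 5 of the 10 genes against Pam2CSK4 alone, where 11% of all genes were called (6.81% higher and 4.18% lower). Cxcr5 (0.94 ± 0.16, limma adjusted p = 0.0109) and Ebi3 (1.44 ± 0.16, adjusted p = 0.00218) were higher. Ccr7 read 1.67-fold higher (limma adjusted p = 0.0406), with its anti-CD40 + Pam2CSK4 spots saturated. S1pr1 (-1.16 ± 0.17, adjusted p = 0.00584) and S1pr4 (-1.30 ± 0.17, adjusted p = 0.00381) were lower. The slide-adjusted fit called 7, with Ccr6 (-0.63) and Gpr183 (0.55) added, where 35.9% of all genes were called. Adding Pam2CSK4 to anti-CD40 gave 0 calls, beside 2.6% of all genes, and 5 at an unadjusted p under 0.05, beside 19.4%. Ccr7, which was saturated in both conditions, is among those 5. After slide adjustment Cxcr5 (0.28), Gpr183 (0.41), Ebi3 (0.46) and S1pr4 (-0.57) were called, where 15.6% of all genes were. Ccr7 passed as well, but with both conditions saturated that call is not a measured difference.

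**Figure D3:**
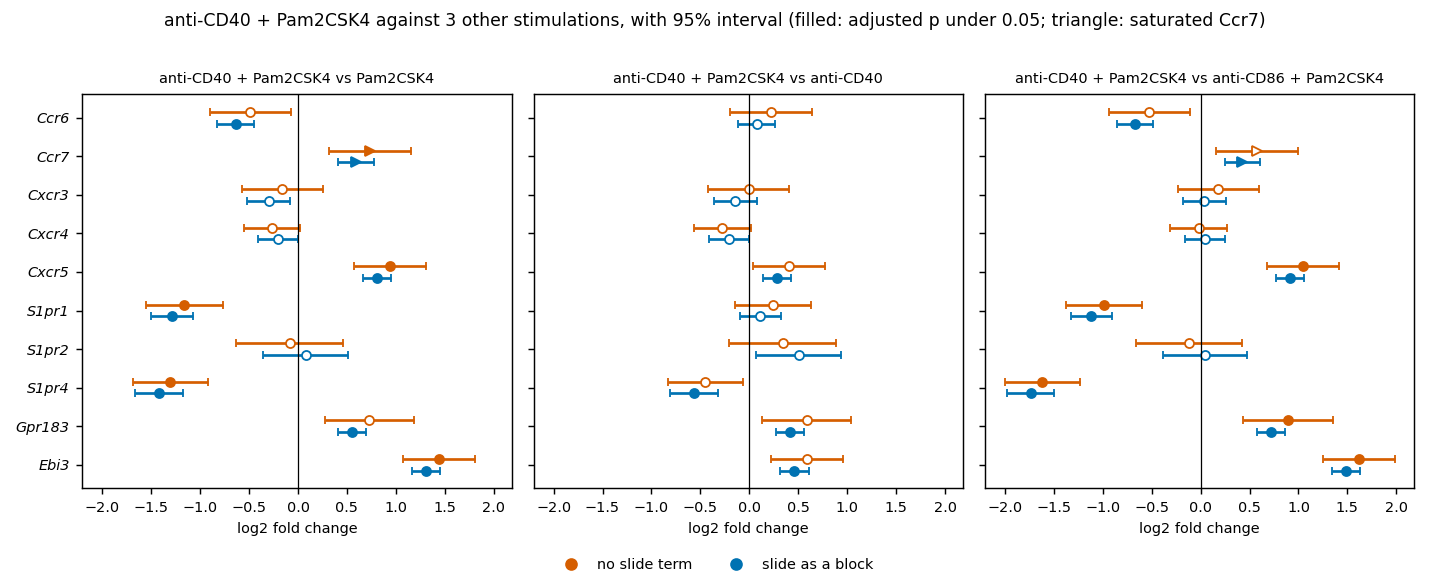
The log2 fold change of each gene between anti-CD40 + Pam2CSK4 and 3 other stimulations (x axis) is plotted with its 95% interval, without a slide term (orange) and slide-adjusted (blue). Filled symbols passed an adjusted p of 0.05. Triangles mark Ccr7, whose spots were saturated with anti-CD40 + Pam2CSK4, and Ccr7 is left out where both conditions were saturated. Against TLR2.CD86, S1pr4 lay at -1.62 and Ebi3 at 1.62 without a slide term.

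Both combinations could be compared directly, since each held Pam2CSK4. Anti-CD40 + Pam2CSK4 differed from TLR2.CD86 in 5 of the 10 genes, where 13.5% of all genes were called (8.85% higher and 4.64% lower). Ebi3 was higher by 1.62 ± 0.16 (limma adjusted p = 0.00122), Cxcr5 by 1.04 ± 0.16 (adjusted p = 0.00638) and Gpr183 by 0.89 ± 0.20 (adjusted p = 0.0253). S1pr4 was lower by a log2 change of -1.62 ± 0.17 (adjusted p = 0.00142) and S1pr1 by -0.99 ± 0.17 (adjusted p = 0.00931). Ccr7 read 1.49-fold higher (limma adjusted p = 0.0801, slide-adjusted 0.0066), with its anti-CD40 + Pam2CSK4 spots saturated. For Cxcr4 the difference was -0.02, with an interval from -0.31 to 0.27. The TLR2.CD86 arrays were split between the slides and those of anti-CD40 + Pam2CSK4 were not. After slide adjustment 7 genes were called, Ccr6 (-0.67) and Ccr7 being added, where 39.1% of all genes were.

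Whether a combination departed from the sum of its single signals was tested as an interaction on the log2 scale. Limma called 0 of the 10 genes for anti-CD86 with Pam2CSK4 (0 at an unadjusted p under 0.05, beside 3.64% of all genes; 0.00695% called) and 0 for anti-CD40 with Pam2CSK4 (1 unadjusted, S1pr1, beside 19.6%; 0.855% called). For S1pr1 the CD40 interaction was 0.74 ± 0.24 (adjusted p = 0.182), and 0.49 after slide adjustment (adjusted p = 0.0739). The slide-adjusted fit called 0 of the 10 genes for CD86 (0.146% of all genes) and Cxcr5 for CD40, at -0.40 (adjusted p = 0.0445), where 7.98% of all genes were called. The Cxcr5 spots of both CD40 conditions stood near the scanner limit, and the part of this in the interaction was not tested. The interaction of Ccr7 with anti-CD40 has no value, since both CD40 conditions were saturated.

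Over all 6 conditions at once, limma called 7 of the 10 genes as differing, all but Cxcr3, Cxcr4 and S1pr2, where 21.7% of all genes were called. The slide-adjusted fit called 9, all but S1pr2, beside 66.7%. Across the 12 arrays, Cxcr5 and Ebi3 ran together (Pearson r = 0.988), as did Ccr6 and S1pr1 (r = 0.954), whereas Ebi3 and S1pr4 ran in opposite directions (r = -0.917). The arrays share slides and groups, so these values describe the pattern only. Of 14372 other genes, Icam4 and Myc were most like Cxcr5 (r = 0.998 and 0.993), Bcl2a1b and Myc most like Ebi3 (r = 0.997 and 0.996), Dcaf12 and Ctdsp2 most like S1pr1 (r = 0.994 and 0.992), and Gm15703 and Sertad1 most like Ccr6 (r = 0.992 and 0.990). For Gpr183 they were Timm17a and Dtx3l (r = 0.991 and 0.990), and for S1pr4 Pip5k1c and Tbx6 (r = 0.990 and 0.987). For Ccr7 they were Tmem88 and Nfkbid (r = 0.992 and 0.989), but its readings were saturated on all arrays with anti-CD40.

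Among 14 further receptors tested, 1 rose and 1 fell with TLR2.CD86 (12.9% of all genes called), 1 rose and 1 fell with anti-CD40 (20.4%), and 3 rose and 1 fell with anti-CD40 + Pam2CSK4 (21.4%), with a median change of -0.31 in the last. The slide-adjusted fit called 8, 7 and 10 of them, beside 40.4%, 44% and 54.1% of all genes. Cxcr7, which scavenges CXCL12, rose with anti-CD40 (0.61, limma adjusted p = 0.0182) and with anti-CD40 + Pam2CSK4 (0.64, adjusted p = 0.0109). Ptger4, a prostaglandin receptor, rose with the latter (0.95, adjusted p = 0.0235), and P2ry10, a lysophospholipid receptor of lymphocytes, fell with both (-0.52 and -0.44, adjusted p = 0.0214 and 0.0308). Ccrl2, an atypical chemokine receptor, rose with TLR2.CD86 (0.89, adjusted p = 0.0423) and anti-CD40 + Pam2CSK4 (0.85, adjusted p = 0.0322). Ccbp2, an atypical receptor named after its value was seen, fell with TLR2.CD86 (-0.74, adjusted p = 0.0327). Of the ligand genes 3 could be tested (Ccl19, Cxcl9 and Cxcl10) and limma called none, while Ccl20, Cxcl12 and Cxcl13 were well above background on no array.

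Of 9 enzymes and carriers of S1P and oxysterols tested, 1 fell with anti-CD86 (2.13% of all genes called), 2 with TLR2.CD86 (12.9%), 3 with anti-CD40 (20.4%) and 3 with anti-CD40 + Pam2CSK4 (21.4%), and 0 were called higher in the fit without a slide term. The median change of the 9 was -0.09 in the last, beside -0.10 over all genes. Sgpl1, the S1P lyase, was named after its values were seen and read 4.82 to 4.93 on the 4 arrays with anti-CD40 and 4.36 to 4.61 on the other 8, with changes of 0.30 and 0.28 (limma adjusted p = 0.0841 and 0.104; slide-adjusted 0.00775 and 0.00947). Sphk1, a kinase that makes S1P, fell in all 4 of these, by -0.96 with anti-CD86 (limma adjusted p = 0.0359), -0.93 with TLR2.CD86 (adjusted p = 0.0175), -0.71 with anti-CD40 (adjusted p = 0.0247) and -0.68 with anti-CD40 + Pam2CSK4 (adjusted p = 0.0235). Sgpp1, an S1P phosphatase, fell by -0.54 to -0.57 in the last 3, Ppap2b, a lipid phosphatase, by -0.68 with anti-CD40, and Spns2, an S1P exporter, by -0.97 with anti-CD40 + Pam2CSK4 (adjusted p = 0.0025). The enzymes Ch25h and Cyp7b1, which make the ligand of GPR183, were well above background on 1 array only, the first of TLR2.CD86, at -2.63 and -1.54. On the other 11 arrays Ch25h read at most -4.37 and Cyp7b1 at most -4.83, and on the second TLR2.CD86 array they read -5.32 and -6.18.

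Of 25 tested regulators of receptor expression, receptor signalling and migration, 3 fell with TLR2.CD86, 5 with anti-CD40 and 3 with anti-CD40 + Pam2CSK4, where 1 rose (Rapgef1, 0.70, named after its value was seen). These counts were near the shares of all genes called, 12.9%, 20.4% and 21.4%. After slide adjustment 14, 18 and 16 of the 25 were called, beside 40.4%, 44% and 54.1%. Foxo1, a transcription factor known to sustain homing receptor genes in resting lymphocytes, fell with anti-CD40 (-0.92, limma adjusted p = 0.0140) and anti-CD40 + Pam2CSK4 (-0.61, adjusted p = 0.0451). Rgs2, a brake on G protein signals, fell in all 3 (-0.71, -0.79 and -0.75), and Rgs16 with TLR2.CD86 (-0.81) and anti-CD40 + Pam2CSK4 (-0.51). Dock8, an exchange factor needed for lymphocyte migration, fell with TLR2.CD86 (-1.24, adjusted p = 0.0226). Rgs1, Rgs14 and Rac2, named after their values were seen, fell with anti-CD40 (-0.67, -0.60 and -0.63). Klf2, the factor that drives S1pr1, was saturated on all 12 arrays and gave no measured change. Cd69, which draws S1PR1 off the cell surface, read 4.16 and 4.16 in unstimulated cells, 4.87 and 4.34 with anti-CD40 and 4.83 and 4.82 with anti-CD40 + Pam2CSK4. Its change there was 0.66 ± 0.22 (adjusted p = 0.0789; slide-adjusted 0.000458).

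Of 11 adhesion genes of homing, 1, 1, 1, 2 and 2 were called higher with Pam2CSK4, anti-CD86, TLR2.CD86, anti-CD40 and anti-CD40 + Pam2CSK4. With TLR2.CD86, anti-CD40 and anti-CD40 + Pam2CSK4, 1, 2 and 1 were called lower. Of all genes, 0.153%, 2.13%, 12.9%, 20.4% and 21.4% were called in the 5 comparisons. The slide-adjusted fit called 2, 6, 6, 6 and 8 of the 11, beside 12.3%, 31.6%, 40.4%, 44% and 54.1%. Icam1, the ligand of LFA-1, rose in all 5, by 1.49 with Pam2CSK4 (limma adjusted p = 0.0049), 0.72 with anti-CD86 (adjusted p = 0.0329) and 1.85 with TLR2.CD86 (adjusted p = 0.0011). Its rise was 2.70 with anti-CD40 and 2.84 with anti-CD40 + Pam2CSK4. Cd44, a hyaluronan receptor, rose with both CD40 stimulations (0.48 and 0.54), and the tetraspanin Cd9 fell with TLR2.CD86, anti-CD40 and anti-CD40 + Pam2CSK4 (-0.76, -0.62 and -0.59). Icam2 fell with anti-CD40 (-0.72).

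Of 6 genes that encode partners of EBI3, related IL-12 chains or their receptors, Il12b, the p40 chain, moved most. It rose with Pam2CSK4 (1.78, limma adjusted p = 0.00494), TLR2.CD86 (1.13, adjusted p = 0.00842) and anti-CD40 + Pam2CSK4 (1.50, adjusted p = 0.000456) and fell with anti-CD40 alone (-0.74, adjusted p = 0.0124). Il12rb2, a receptor chain, rose with anti-CD40 + Pam2CSK4 (0.86, adjusted p = 0.0331). Il27, the gene of the p28 partner, gave 0.45 with anti-CD40 and 0.31 with anti-CD40 + Pam2CSK4 (adjusted p = 0.0907 and 0.225), and Il12a, the gene of p35, gave 0.26 and 0.28. The median of the 6 genes was 0.29 with anti-CD40 + Pam2CSK4, beside -0.10 over all genes.

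**Figure D4:**
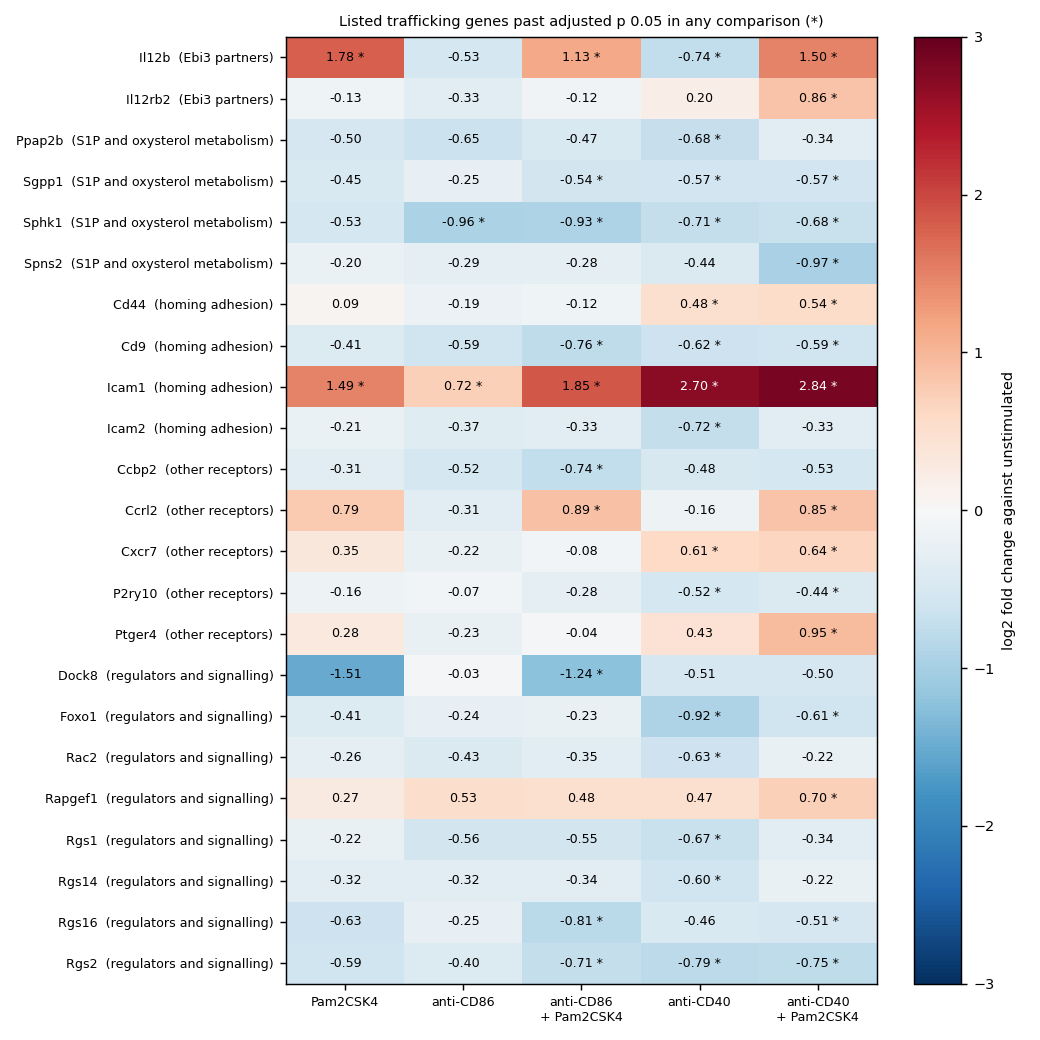
The log2 fold change against unstimulated cells is written in each field and shown by colour for the 23 listed genes that passed an adjusted p of 0.05 in any of the 5 comparisons, and stars mark the comparisons that passed. Icam1 is the gene with a star in all 5 columns, and the rows of S1P metabolism hold falls among their stars.

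Markers of other tissues moved with the same groups. The liver markers, of which 5 were tested, had a summed signal of 14.0 to 14.3 in unstimulated cells and 6.33 to 10.0 in the 4 conditions split between slides. With anti-CD40 + Pam2CSK4 it was 0.584 to 0.759, and 5 of 5 were called lower (Alb, Apoa1, Apoa2, Fgb and Ahsg), beside 13.7% of all genes. Of 11 myeloid and dendritic cell markers tested, 4 were lower with TLR2.CD86 and with anti-CD40 + Pam2CSK4 (Csf1r, Itgam, S100a8 and Emr1) and 2 with anti-CD40. Of all genes, 11.1%, 13.7% and 15.7% were called lower in the same order. The summed signal of the myeloid list was 320 to 348 in unstimulated cells, 274 to 305 with TLR2.CD86 and 269 to 306 with anti-CD40. With anti-CD40 + Pam2CSK4 it was 331 to 379. Irf4, a plasma cell marker that activated B cells also express, was called higher in the 4 conditions other than anti-CD86, and the 5 plasma cell markers summed to 21.6 to 21.9 in unstimulated cells and 44.0 to 46.6 with anti-CD40 + Pam2CSK4. Of the same 5 markers Tnfrsf17 was called lower with TLR2.CD86 and anti-CD40 and Sdc1 with both CD40 stimulations. The median change of the 5 was -0.54 with TLR2.CD86, -0.41 with anti-CD40 and -0.35 with anti-CD40 + Pam2CSK4. Of all genes, 12.9%, 20.4% and 21.4% were called in the same order, and 0.153% with Pam2CSK4. B cell markers summed to 547 to 608 in unstimulated cells and 704 to 807 with anti-CD40 + Pam2CSK4. There 1 of 10 (Fcer2a) was called higher, beside 7.63% of all genes. The part of these shifts in the changes of the receptors and of Ebi3 was not tested.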

How the data were processed

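RNA of RB cells was labelled with Cy3 and measured on 12 Agilent arrays of a custom mouse design with mm9 annotation, 2 for each of 6 conditions. The authors deposited the processed signal intensity of each spot, which Feature Extraction had corrected for background within the array, and a table of log2 values that equalled the log2 processed intensity minus 1 constant per array. For the signal, the log2 processed intensities of an array were shifted so that their 75th percentile was 0. Control and outlier spots (5 to 35 per array) were left out, saturated spots (987 to 1206) kept and spots of a probe averaged. The filter kept 31667 of 61307 probes, each well above background on both arrays in 1 condition or more, and 68 with a missing value were then left out, so 31599 were tested. Between 46.6% and 60.6% of the spots of an array exceeded background by this measure, and the number of arrays limits the precision.

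Limma 3.58.1 (R 4.3.3) fitted 1 mean per condition to the 12 arrays, which left 6 residual degrees of freedom, with empirical Bayes moderation, and p-values were adjusted by Benjamini-Hochberg across all of these probes. The SE of a change thus pools the spread within all 6 conditions. The median absolute log2 difference between both arrays was 0.0682 in unstimulated cells and 0.0818 with anti-CD40 + Pam2CSK4. In the 4 conditions split between slides it was 0.192 to 0.316. A gene was given by its brightest probe, and Cxcr4 and S1pr2 had 2 probes. Of genes with a RefSeq symbol or synonym, 14382 were tested. The alternatives were other scalings and background correction, other filters, the authors' log2 table, slide and replicate blocks, slide 1 alone, other moderation and each array left out; values within slide 2 were added after the data had been seen. The motif search was also chosen after the data had been seen. Python 3.11.15 with pandas 2.3.3 and matplotlib 3.10.9 was used for tables and figures.

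The genes and the lists around them were chosen with earlier results of these data known, and counts over them are descriptions beside the share of all genes called. All 10 genes were named, along with up to 4 genes of each list with the lowest adjusted p, markers or regulators that stand beside a result, and the 2 genes most like each called gene by Pearson r. The genes most like Cxcr4 and 1 adhesion gene are not reported here. Whether both arrays of a condition came from separate animals is not given per sample, so p-values measure the spread between these samples.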

Additional observations from a re-analysis of the deposited data

Results flagged for a closer look

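The second probe of S1pr2, which was too dim to be tested, was well above background on 3 of the 10 arrays of stimulated cells and on 0 of 2 arrays of unstimulated cells, which marked it as a signal outside the tested probes. The arrays were the second of anti-CD86, the second of anti-CD40 and the first of anti-CD40 + Pam2CSK4. No condition had both of its arrays among them.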

How the results depend on the processing

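Counts of the 10 genes called are given here under each setting that moved them by over 1.5 times. Pam2CSK4 against unstimulated cells gave 0, and 1 with quantile normalization and 5 with a slide block. Anti-CD86 gave 0, and 6 with a slide block and 3 with a replicate block. TLR2.CD86 gave 2, and 0 with median normalization or without the filter on dim probes, 4 with quantile normalization, normexp, probes well above background on all 12 arrays, slide 1 alone, or trend and robust moderation, and 6 with a slide or replicate block. Anti-CD40 gave 6, and 1 with median normalization. Anti-CD40 + Pam2CSK4 gave 8, and 2 with median normalization and 5 without the filter. TLR2.CD86 against anti-CD86 gave 0, and 1 with quantile normalization, a replicate block, or trend and robust moderation and 4 with a slide block. Anti-CD40 + Pam2CSK4 against Pam2CSK4 gave 5, and 0 with median normalization and 3 without the filter. Against anti-CD40 it gave 0, and 1 with quantile normalization, 2 with a replicate block and 5 with a slide block. Ccr7, saturated in both conditions, is among those 5. Against TLR2.CD86 the count was 5, and 1 with median normalization. The CD40 interaction gave 0, and 1 with a slide or replicate block. Any difference gave 7, and 3 with median normalization and 4 without the filter. When each array was left out in turn, the counts ran from 0 to 4 for TLR2.CD86, 2 to 6 for anti-CD40 and 5 to 8 for anti-CD40 + Pam2CSK4, each against unstimulated cells, from 2 to 6 for anti-CD40 + Pam2CSK4 against Pam2CSK4, 2 to 5 against TLR2.CD86 and 4 to 7 for any difference, and stayed at 0 in the other 7 comparisons. The cause of these shifts was not tested.

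Changes that turned direction were all of genes not called in that comparison, and for these the range with each array left out in turn is given as well. For Ccr6 with anti-CD86 the change turned to 0.0297 with quantile normalization and 0.0318 with a slide block, and with TLR2.CD86 to 0.0126, 0.00426 and, on slide 1, 0.0284 (range -0.32 to 0.03). Cxcr5 with anti-CD86 turned to 0.103 with quantile normalization, 0.0620 with a slide block and 0.0237 on slide 1 (range -0.16 to 0.02). S1pr2 with anti-CD40 turned to -0.48 with median and -0.53 with quantile normalization, -0.0784 with a slide block, and -0.162 on slide 1 (range -0.163 to 0.33). S1pr4 with TLR2.CD86 turned to -0.14 with median normalization (range -0.0503 to 0.34). Gpr183 turned to 0.0742, 0.15 and 0.12 with Pam2CSK4 (quantile, slide block, slide 1; range -0.17 to 0.12), to 0.0172 with TLR2.CD86 on slide 1 (range -0.39 to 0.02), and with anti-CD40 to -0.45 with median normalization (range -0.0815 to 0.32). Replicate numbers were not shown to mark a shared animal or day, since same-numbered arrays correlated from -0.107 to 0.674 in their deviations, and the 4 conditions that correlated (0.538 to 0.674) are those split between the slides.

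Of all changes and counts recomputed under 22 settings, S1pr1 with both CD40 stimulations and Ebi3 with anti-CD40 + Pam2CSK4 stayed called throughout. Ebi3 with anti-CD40 and Ccr7, Cxcr5 and S1pr4 with anti-CD40 + Pam2CSK4 were lost with median normalization alone. The 2 arrays a condition limit the precision, and S1pr2 was well above background on 1 of 2 arrays in both conditions compared for anti-CD40.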
